A study of Mus musculus with 5 samples.

Results

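The colony-stimulating factors and their receptors were followed through the kidney of mice given aristolochic acid I (AAI), a plant toxin that injures the tubule. The genes were the ligands Csf1, Il34, Csf2 and Csf3 and the receptor chains Csf1r, Csf2ra and Csf2rb, chosen by symbol and present in all 5 single-cell libraries, 7 of the 32285 genes listed. The control was 1 library from mice given vehicle. The 2 AKI (acute kidney injury) libraries came from mice injected intraperitoneally with 3 mg/kg AAI every 3 days for 2 weeks, and the 2 CKD (chronic kidney disease) libraries from mice that then had 2 weeks without AAI. All mice were wild-type C57BL/6 males of 8 to 10 weeks, with no transgene or deletion in any group. Whether a library came from 1 mouse or from pooled mice is not given in the sources used here, so p-values measure only the spread between these libraries, which may be technical.

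CSF1 and IL-34 are separate proteins that bind the same receptor tyrosine kinase, CSF1R, which keeps tissue macrophages alive and lets them divide. In the kidney, tubule cells are a known source of both ligands after injury. CSF2 (GM-CSF) acts through CSF2RA, which binds the ligand, and CSF2RB, the signalling chain shared with the receptors of IL-3 and IL-5. CSF3 (G-CSF) acts through CSF3R and drives the output of neutrophils.

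On GRCm39, Csf1 (ENSMUSG00000014599) lies on chromosome 3 from 107648364 to 107667806 on the minus strand, Il34 (ENSMUSG00000031750) on chromosome 8 from 111423928 to 111532584 (minus) and Csf1r (ENSMUSG00000024621) on chromosome 18 from 61229714 to 61266535 (plus). Csf2 (ENSMUSG00000018916, 54138097 to 54140493, minus) and Csf3 (ENSMUSG00000038067, 98592089 to 98594458, plus) are both on chromosome 11, and Csf2ra (ENSMUSG00000059326) is on chromosome 19 from 61212395 to 61216892 (minus). Csf2rb (ENSMUSG00000071713, chromosome 15, 78209952 to 78238047, plus) has a near-identical neighbour, Csf2rb2 (ENSMUSG00000071714, 78166707 to 78189921, minus), which encodes the IL-3-specific beta chain of the mouse. Reads shared by this pair could be split or lost in counting, so their levels are uncertain.

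Molecules were counted as unique molecular identifiers (UMIs). The 53718 cells kept numbered 8496 in the control, 10199 and 9910 in AKI, and 16330 and 8783 in CKD, with 54731139 to 79483319 UMIs per library. Clusters were made without the 7 genes and named from marker lists, so each cell type name below means cells like that type, and clusters that could not be named are called by 3 leading genes. The control stood apart: 38.7% of its barcodes exceeded 30% mitochondrial UMIs, against 11.1 to 12.7% elsewhere, and it shared 118 barcodes with CKD 2, where other pairs of libraries shared 14 to 51. Without the 200 control cells whose barcode recurred in another library, the 39 control levels with at least 20 UMIs were 0.831 to 1.055 times those given below, and the control cells of the SM macrophage class described below went from 87 to 47. CKD 1 stood apart too. Its lowest barcode held 1229 UMIs, against 500 to 599 elsewhere, and it had 22034 barcodes, against 10873 to 14958. Its kept cells had a median of 2866 UMIs, against 3530 to 5620 elsewhere. Intercalated cells had a median of 2743 UMIs in CKD 1 and 31519 in CKD 2. The part of this in the CKD values was not tested. A level is the UMIs of a gene in CPM (counts-per-million), relative to all UMIs of the cells of a class in a library. Values are given in the order control, AKI 1 and AKI 2, CKD 1 and CKD 2, and no level is compared between genes. Intervals are exact 95% intervals and cover counting error only. CKD was compared with AKI with edgeR on UMIs summed per library and class, and a gene was called at an adjusted p under 0.05 over all genes of the class. The control, a lone library, was compared by its values alone.

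Csf1, the general macrophage growth factor, was found in vessels, stroma and tubule. In endothelial cells its level was 105 in the control, 100.4 and 64.3 in AKI, and 55.5 and 79.0 in CKD. The control was above the other 4 libraries, as were 31.7% of all genes with at least 20 UMIs in that class, and the AKI and CKD values overlapped. These cells held 35.9% of all Csf1 UMIs in the control and 10.8 to 19.6% in the 4 AAI libraries. A cluster led by Cldn5, Sox17 and Slc14a1, with 8 of 9 endothelial markers at least 2-fold raised, stood at 52.7 in the control, 93.6 and 57.0 in AKI, and 52.7 and 42.4 in CKD. In fibroblasts or pericytes the level was 60.1 in the control, 109 and 117 in AKI, and 44.0 and 144 in CKD, so the CKD libraries lay on either side of AKI.

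In the nephron, control Csf1 was low in the proximal tubule, distal tubule and thick ascending limb, but not in every class. Proximal tubule cells, the main target of AAI, held 4 Csf1 UMIs in the control, a level of 0.777 (0.212 to 1.99). They stood at 26.8 and 13.0 in AKI and 7.63 and 19.6 in CKD. In distal convoluted or connecting tubule cells the control level was 0.358 from 1 UMI, and the AAI libraries ranged from 5.14 to 29.8. In the thick ascending limb, which reabsorbs salt, Csf1 stood at 3.99 in the control, 18.9 and 24.3 in AKI, and 6.88 and 15.7 in CKD. Principal cells of the collecting duct gave 27.9 in the control, 90.5 and 66.15 in AKI, and 37.1 and 61.9 in CKD. The control was below all 4 AAI libraries in these 4 classes. So were 34.2% of all genes with at least 20 UMIs in the proximal tubule, 27.8% in the distal tubule, 31.1% in the thick ascending limb and 17.2% in principal cells.

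The thin limb of the loop of Henle held 17.0% and 13.1% of all Csf1 UMIs in AKI, against 5.13% in the control and 4.21% and 3.13% in CKD. Its level was 22.6 in the control, 119 and 79.1 in AKI, and 19.3 and 36.7 in CKD, where CKD 2 had 18 cells, under the minimum of 20 for the test. A cluster led by Ncam1, Akap12 and Cldn1 gave 65.9 in the control, 134 and 159.7 in AKI, and 105 and 54.5 in CKD. It had 7 of 8 injured tubule markers at least 2-fold raised, but Havcr1, which encodes the injury marker KIM-1, was not among its 10 leading genes, so it was left unnamed. In both classes the CKD libraries lay below both AKI libraries, as did 23.5% and 28.3% of all genes with at least 20 UMIs. In the Ncam1/Akap12/Cldn1 cluster the change of Csf1 from AKI to CKD was -0.74 ± 0.34 (log2, SE; edgeR adjusted p = 0.557).

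Of the named blood cell classes with at least 20 Csf1 UMIs, neutrophils had the highest level in each library, but from few molecules. It was 211 in the control, 210.3 and 142 in AKI, and 451 and 195 in CKD, from 10 to 39 UMIs in 19 to 46 cells. A Csf1 UMI was found in 22.2 to 40.0% of neutrophils. In the control, 3 cells of an unnamed cluster had a higher level, given under other observations. Macrophages had between 5.24 in the control and 16.2 in AKI 1, and all T cells together between 1.47 in CKD 2 and 9.43 in the control, where the 5 libraries read 9.43, 4.10, 3.96, 1.92 and 1.47.

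Csf1 was tested in 16 classes and called in CD8 T cells. It was also called in both combined classes, all macrophage-like cells, given below, and all T cells together (-1.26 ± 0.24, log2, SE; edgeR adjusted p = 0.0404, with 9.1% of genes called). In the tubule, changes with an unadjusted p under 0.05 were -1.02 ± 0.35 in the thick ascending limb and -0.70 ± 0.26 in principal cells, with edgeR adjusted p of 0.367 and 0.842. The calls depended on the library left out, with the lone library of an arm taken to vary like the other arm. Without CKD 2, Csf1 was called in 5 more classes (proximal tubule, thick ascending limb, distal tubule, intercalated cells, and fibroblasts or pericytes). Without CKD 1 it was called in none of these but in macrophages, T cells without a subtype and the Ncam1/Akap12/Cldn1 cluster, and without AKI 1 or AKI 2 it was called in no class, the combined classes included.

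**Figure D1:**
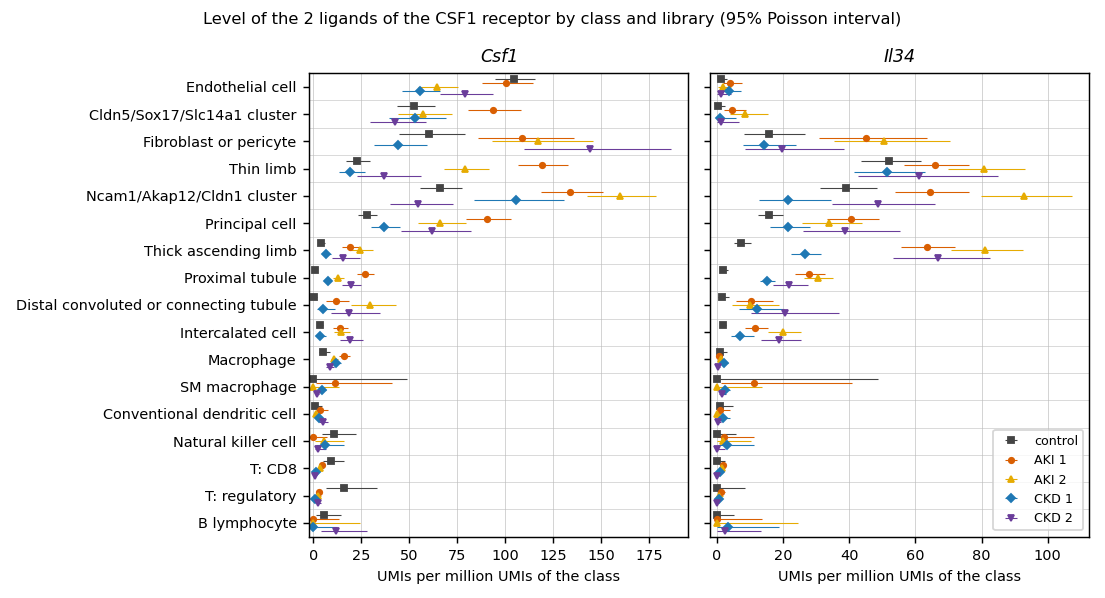
Levels of Csf1 and Il34 in CPM of a class, by class and library, with 95% Poisson intervals as bars. Csf1 reached 105 in control endothelium and 159.7 in the Ncam1/Akap12/Cldn1 cluster of AKI 2, and Il34 was at 52.0 in the control thin limb and at 7.35 to 81.1 in the thick ascending limb.

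Il34, the alternative CSF1R ligand, came mostly from tubule cells. In the thin limb its level was 52.0 in the control (129 UMIs), 65.9 and 80.9 in AKI, and 51.3 and 61.2 in CKD. The control was within the range of the AAI libraries there, although the thin limb held 33.9% of all Il34 UMIs in the control and 10.1 to 18.6% in the others. In the thick ascending limb the level was 7.35 in the control, 63.5 and 81.1 in AKI, and 26.6 and 66.8 in CKD. This class held 9.19% of Il34 UMIs in the control and 21.6 to 24.6% in the AAI libraries, and CKD 2 lay within the AKI range.

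Proximal tubule cells stood at 1.75 in the control (9 UMIs), 27.8 and 30.4 in AKI, and 15.2 and 21.8 in CKD, so both CKD libraries lay between control and AKI. Both CKD libraries were below both AKI libraries for 23.4% of genes with at least 20 UMIs in that class. Principal cells gave 15.9 in the control, 40.5 and 33.9 in AKI, and 21.5 and 38.7 in CKD. The Ncam1/Akap12/Cldn1 cluster gave 39.1 in the control, 64.3 and 92.8 in AKI, and 21.6 and 48.6 in CKD. In the proximal tubule, thick ascending limb, distal tubule, principal and intercalated cells the control was below all 4 AAI libraries, and the last class, at 24.7%, had a similar background to the shares given above for Csf1. Fibroblasts or pericytes stood at 15.6 in the control, 45.1 and 50.6 in AKI, and 14.3 and 19.6 in CKD, with both CKD libraries below AKI, as for 30.1% of genes. Over all T cells Il34 ranged from 0.1399 to 1.54, and in macrophages from 0.267 to 2.04.

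Il34 was tested in 10 classes and called in none by edgeR. The changes with an unadjusted p under 0.05 were -1.34 ± 0.36 in fibroblasts or pericytes, -1.04 ± 0.34 in the Ncam1/Akap12/Cldn1 cluster and -0.65 ± 0.22 in the proximal tubule (log2, SE), with edgeR adjusted p of 0.368, 0.489 and 0.283. Without CKD 2, which leaves CKD 1 alone in its arm, all 3 were called, at -1.495, -1.655 and -0.91, as was the thick ascending limb. Without CKD 1 none of these was called, and the changes were -1.14, -0.66 and -0.42. Il34 was then called in CD8 T cells and T cells without a subtype, with levels of 0 to 2.09 over the libraries. With no filter on low counts it was called in CD8 T cells.

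Csf1r, the receptor of both ligands, was concentrated in macrophages. All macrophage-like cells together held 65.8% of its UMIs in the control, 86.8% and 88.0% in AKI, and 80.6% and 89.8% in CKD. Their level was 514.5 in the control, 556 and 517 in AKI, and 239.7 and 315 in CKD. Both CKD libraries lay below both AKI libraries, as for 25.2% of genes with at least 20 UMIs, and below the control. The change from AKI to CKD was -1.13 ± 0.17 (log2, SE; edgeR adjusted p = 0.00551), where 31.8% of the 12552 genes tested were called in either direction. Without AKI 1 the adjusted p was 0.0548, with a change of -1.015. Thinned to 1000 UMIs per cell, 36.6% of these cells held a Csf1r UMI in the control, 37.1% and 39.6% in AKI, and 16.0% and 23.8% in CKD (unthinned 73.1%, 85.6%, 89.5%, 44.1% and 89.8%). In these sums, fewer expressing cells and less RNA per cell cannot be told apart.

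Macrophages outside the SM class stood at 525 in the control, 566 and 519.6 in AKI, and 196 and 260.4 in CKD, a change of -1.43 ± 0.18 (edgeR adjusted p = 0.00852, with 20.6% of genes called). Without AKI 1 or AKI 2 the adjusted p was 0.0735 or 0.0575. SM macrophages are a subset of the study marked by Acp5, Ctsk, Mmp9 and Spp1, genes also known from osteoclasts. They stood at 185 in the control, 113 and 380.1 in AKI, and 305 and 372 in CKD, a change of 0.48 ± 0.47 (edgeR adjusted p = 0.677) that was -0.058 without AKI 1. These levels overlapped, and the control level came to 87.0 (23.7 to 223), from 4 UMIs, without the cells whose barcode recurred in another library. The difference between the 2 changes was 2.04 ± 0.31 (log2, SE; edgeR adjusted p = 5.21e-05, with 3.74% of genes called), a test added after the data were seen.

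SM macrophages were few and shallow before CKD. Their Csf1r levels rested on 14 UMIs in the control and 20 and 103 in AKI, against 1803 and 2623 in CKD, and they held 0.369% and 1.35% of all Csf1r UMIs in AKI but 41.1% and 51.5% in CKD. The 4 SM markers summed to a level of 5064 in the control, 2499.5 in AKI 1 and 17332 in AKI 2, and to 20852 and 19915 in CKD, so the cells of this class in AKI 1 carried far less of the marker RNA. The same sum reached 20532 in the thin limb of AKI 2, since Spp1 is also a tubule gene. Without AKI 1 the difference between the changes was 1.37 ± 0.17 (edgeR adjusted p = 0.000395), and without AKI 2 it was 3.39 ± 0.22.

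The macrophage class was itself a mix. In its cluster led by Ccl8, Ccl12 and Ccl7, chemokine genes, Csf1r stood at 529.97 in the control, 549 and 526 in AKI, and 120.8 and 283 in CKD. In the cluster led by Fn1, Ccl6 and Cxcl2 it was 435 in the control, 595 and 519 in AKI, and 221 and 308 in CKD. Both were lower in both CKD libraries. Tested alone, the Fn1/Ccl6/Cxcl2 cluster was called, with -1.11 ± 0.16 (edgeR adjusted p = 0.0053, with 7.49% of genes called), and the Ccl8/Ccl12/Ccl7 cluster was not, with -1.58 ± 0.43 (adjusted p = 0.196) in a fit that called 0 of 10114 genes. A cluster led by Pltp, Lpl and S100a4 had 349 and 84 cells in CKD and 1, 2 and 11 in the other libraries, and its Csf1r level in CKD was 158 and 189.6. A cluster led by Ms4a7, Pf4 and Ccl12 was found in CKD alone (161 and 22 cells), with 356 and 397.

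In the macrophage class, macrophage markers were lower in CKD, as Csf1r was, and T cell markers were higher. The 8 macrophage markers, all detected in each library, summed to 12410 in the control, 14785 and 14703 in AKI, and 6318 and 7678 in CKD. The 9 T cell markers summed to 34.2 in the control (7 detected), 77.0 and 75.9 in AKI, and 366 and 143 in CKD. Their part in the result was not tested.

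**Figure D2:**
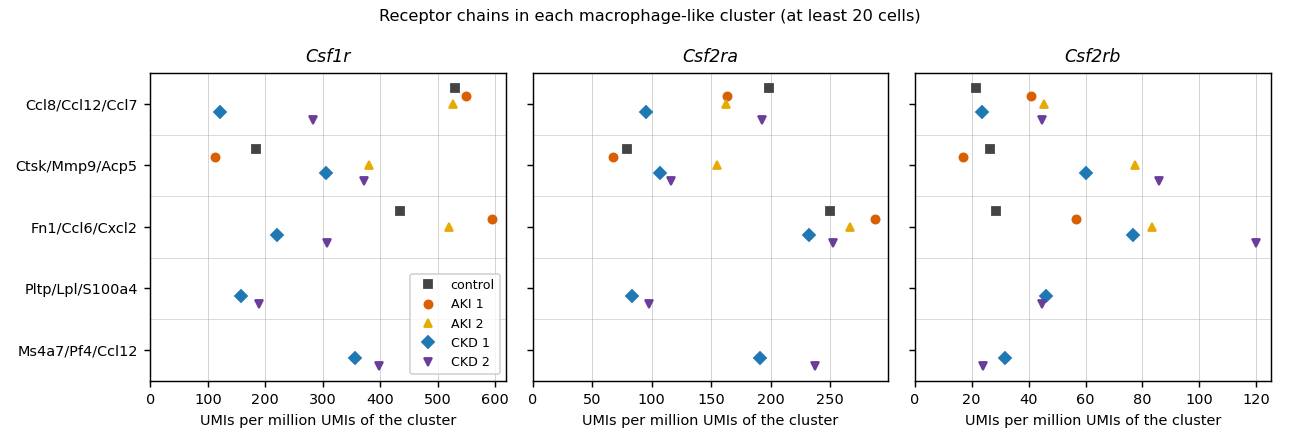
Levels of Csf1r, Csf2ra and Csf2rb in CPM of a cluster, for macrophage-like clusters with at least 20 cells in a library, by library. In the Ccl8/Ccl12/Ccl7 and Fn1/Ccl6/Cxcl2 clusters Csf1r was between 435 and 595 in control and AKI and between 120.8 and 308 in CKD.

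Csf1r was also present in epithelium, most clearly in the control. There, the thin limb had a level of 110.1 (97.4 to 124) from 273 UMIs and the Ncam1/Akap12/Cldn1 cluster 116 (102.5 to 131) from 256 UMIs, together with 13.7% and 12.8% of all Csf1r UMIs of the library. Control proximal tubule cells stood at 1.94, the thick ascending limb at 2.10 and all T cells together at 1.57. A Csf1r UMI was found in 78 of 138 thin limb cells (56.5%, 47.8 to 64.9%) and in 68 of 99 cells of the Ncam1/Akap12/Cldn1 cluster (68.7%, 58.6 to 77.6%), but in 8 of 1017 proximal tubule cells (0.787%). Median depths were 13301, 17607 and 3296 UMIs, and after thinning to 1000 UMIs the shares were 8.03%, 9.18% and 0.335%.

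The epithelial cells with Csf1r in the control held little macrophage RNA. The 78 thin limb cells held 12 UMIs of the 8 macrophage markers, a summed level of 6.46, and the 60 thin limb cells without Csf1r held 10, a level of 16.1. The 68 cells of the Ncam1/Akap12/Cldn1 cluster held 13, a level of 7.42, where control macrophages had 12410. Adgre1, Ms4a7 and Trem2 were at 0 in the control thin limb, and Ms4a7 and Trem2 in the Ncam1/Akap12/Cldn1 cluster.

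In the AAI libraries the levels of these 2 classes were lower, and those of the proximal tubule and thick ascending limb were higher. Principal cells overlapped, at 0.670 in the control, 1.91 and 10.4 in AKI, and 13.9 and 0 in CKD. The thin limb stood at 32.4 and 32.9 in AKI and 35.9 and 47.2 in CKD, and the Ncam1/Akap12/Cldn1 cluster at 41.6 and 45.6 in AKI and 73.6 and 27.2 in CKD. The control was above all 4 in both classes, as were 26.8% and 30.8% of all genes with at least 20 UMIs. Macrophage markers were higher in the AAI libraries, from 8.87 in the control thin limb to 52.8 and 212 in AKI and 227 in CKD 1, and their part in these levels was not tested. The proximal tubule, at 1.94 in the control, had 12.0 and 8.10 in AKI and 13.8 and 5.52 in CKD, and the thick ascending limb, at 2.10, had 9.45 and 21.0 in AKI and 20.1 and 4.72 in CKD. In both the control was below all 4 AAI libraries, as were 34.2% and 31.1% of genes with at least 20 UMIs. The 8 macrophage markers summed to a level of 18.7 in the control proximal tubule and 36.2 to 393 in the AAI libraries, and to 14.7 and 57.4 to 353 in the thick ascending limb, and their part in the result was not tested. In the Ncam1/Akap12/Cldn1 cluster the change from AKI to CKD was 0.34 ± 0.45 (edgeR adjusted p = 0.833).

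**Figure D3:**
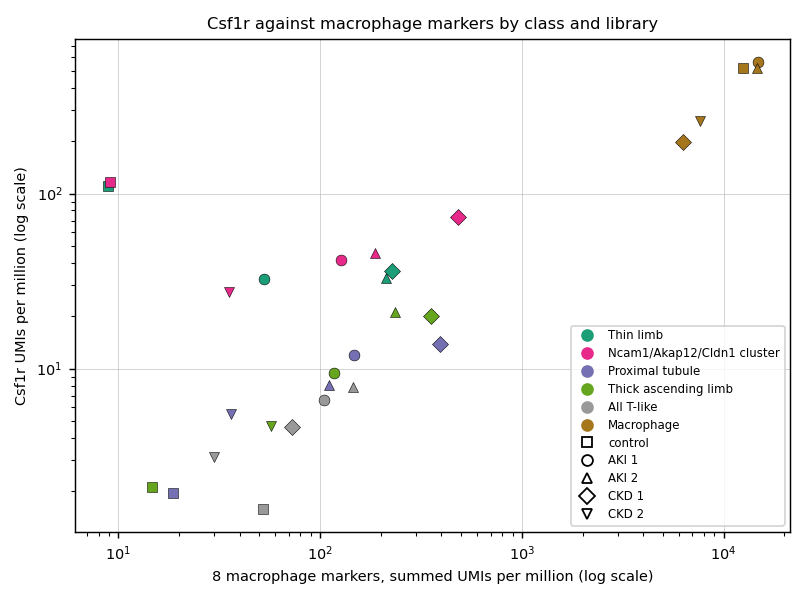
Csf1r level against the summed level of 8 macrophage markers, both in CPM on log axes, by class and library. In the control, the thin limb and the Ncam1/Akap12/Cldn1 cluster lie at 110.1 and 116 for Csf1r with marker levels of 8.87 and 9.09.

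Conventional dendritic cells, which present antigen, had Csf1r at 16.3 in the control, 60.8 and 56.0 in AKI, and 42.0 and 55.4 in CKD. In CD8 T cells 2 members were called of 5 tested, both lower in CKD, where 18.8% of genes were called in either direction and 6.5% lower. Csf1r stood at 0.676 in the control from 1 UMI, 6.05 and 7.53 in AKI and 3.305 and 3.46 in CKD (-1.01 ± 0.23, edgeR adjusted p = 0.0267), and Csf1 at 9.47 in the control, 4.38 and 3.77 in AKI and 1.502 and 0.894 in CKD (-1.82 ± 0.37, edgeR adjusted p = 0.0176). Neither was called without AKI 1 (adjusted p = 0.0821 for Csf1r and 0.166 for Csf1, edgeR) or without AKI 2 (0.249 and 0.136). In the same cells the 8 macrophage markers summed to 25.7 in the control (6 detected), 106 and 146 in AKI and 50.5 and 31.1 in CKD, and their part in these calls was not tested.

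Csf2 was scarce, and the classes named as T cells held most of it: 92.6% of its UMIs in the control (88 UMIs, 54 of them from 23 cells described below, of which 1 held Cd3e), 67.6% and 79.5% in AKI, and 64.1% and 84.2% in CKD. Gamma-delta T cells, an innate-like lineage, had levels of 8.31 and 69.9 in AKI and 63.1 and 47.0 in CKD, from 2, 17, 14 and 26 UMIs, so the AKI libraries lay on either side of CKD. The control had 17 such cells with 1 Csf2 UMI. Natural killer cells stood at 9.23 in the control, 3.97 and 0 in AKI, and 9.31 and 11.3 in CKD, each from 17 UMIs or fewer. In AKI, 23 and 12 Csf2 UMIs lay in 3.70% and 2.50% of the Ncam1/Akap12/Cldn1 cells, and the other libraries had 0 there. Csf2 was tested in 4 classes of T cells and called in none by edgeR, with changes of 0.0037 to 0.71 and 0 unadjusted p under 0.05.

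The largest pool of Csf2 in the control did not match the name of its class. The cells called regulatory T cells held 54 of the 95 control UMIs, a level of 125 (93.8 to 163), against 0.218 and 2.92 in AKI and 1.94 and 3.335 in CKD. The control was above the 4 AAI libraries, as were 31% of genes in that class. The UMIs came from 23 of 89 cells (25.8%, 17.1 to 36.2%), and control proximal tubule cells gave 0 of 1017, which allows a share of cells with a UMI, not of cells expressing the gene, of up to 0.295%. Median depths were 3926 UMIs in the 23 cells, 3358.5 in the other 66 and 3296 in the proximal tubule. None of the 23 cells held Foxp3, the factor that defines regulatory T cells, and 1 held Cd3e, part of the T cell receptor complex. Gata3 was found in 19, Areg in 17 and Il1rl1, the IL-33 receptor gene, in 13. In the 66 other cells of the class in the control, Foxp3 was found in 15 and Cd3e in 28. Gata3 was found in 39 of these 66 cells, Areg in 29 and Il1rl1 in 22, so these 3 genes were not confined to the 23 cells. Gata3, Areg and Il1rl1 were chosen after their values were seen, and the 23 cells are given no name.

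Csf2ra, the chain that binds CSF2, was found in all myeloid classes. Macrophages outside the SM class had 201 in the control, 211 and 210.5 in AKI, and 137 and 177 in CKD, both CKD libraries being lower, as for 21.9% of genes. The change was -0.60 ± 0.16 (edgeR adjusted p = 0.0496), a call lost without AKI 1, without AKI 2 or with the replicate block (0.0558). Tested alone, the Ccl8/Ccl12/Ccl7 and Fn1/Ccl6/Cxcl2 clusters were not called, with -0.35 ± 0.36 and -0.22 ± 0.12 (edgeR adjusted p = 0.616 and 0.34). In CKD the Pltp/Lpl/S100a4 cluster, rare before CKD, stood at 83.2 and 97.8, and the Ms4a7/Pf4/Ccl12 cluster at 191 and 237. Their part in the change was not tested. Over all macrophage-like cells the change of Csf2ra was -0.795 ± 0.13 (edgeR adjusted p = 0.0076), a call lost without AKI 1. SM macrophages gave 79.1 in the control, 67.7 and 155 in AKI, and 107 and 116 in CKD, and the control value, from 6 UMIs, was 43.5 from 2 UMIs without the cells whose barcode recurred in another library. Conventional dendritic cells ranged from 153 to 193 over the 5 libraries and neutrophils from 254 to 395. In the collecting duct, principal cells gave 37.5 in the control and 33.4 to 45.0 in the AAI libraries, and intercalated cells 25.8 and 28.1 to 33.7. All T cells together ranged from 4.19 to 7.21.

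Csf2rb, the signalling chain, was found in vessels as well as myeloid cells. In the Cldn5/Sox17/Slc14a1 cluster it stood at 113 in the control, 228 and 287 in AKI, and 205 and 183 in CKD, with 60.7% of all Csf2rb UMIs in the control and 7.13 to 35.1% in the AAI libraries. The control was below all 4, as were 17.2% of genes with at least 20 UMIs. The 8 macrophage markers in this cluster summed to 13.6 in the control, 41.2 and 62.9 in AKI, and 149.9 and 27.9 in CKD. The other endothelial cells, a cluster led by Plvap and Kdr and one led by Fabp4 and Meis2, had 1 Csf2rb UMI in 1161 control cells, a level of 0.267 (0.00675 to 1.49), and 19.5 and 33.4 in AKI and 24.0 and 16.9 in CKD. The control was below the rest, as were 22.1% of genes, and macrophage markers there were 30.7 in the control, 79.5 and 154 in AKI, and 195 and 41.0 in CKD. The part of these markers in the vessel levels was not tested.

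Among myeloid cells, conventional dendritic cells had Csf2rb at 40.2 in the control, 118 and 119 in AKI, and 107 and 140.4 in CKD. Macrophages had 22.2 in the control, 46.8 and 62.9 in AKI, and 45.4 and 66.15 in CKD. In both classes the control was below all 4 AAI libraries, as were 29.7% and 35.3% of genes. Mature dendritic cells, the Ccr7-expressing state, had 93.8 and 144 in AKI and 113 and 192 in CKD, and neutrophils 278 and 175 in AKI and 266 and 450.2 in CKD, with overlapping groups. Csf2rb was tested in 13 classes and called in none by edgeR, with 1 unadjusted p under 0.05, in the proximal tubule (1.70 ± 0.56, adjusted p = 0.271). Over all macrophage-like cells its change was 0.04 ± 0.24. Whether the changes of Csf2ra and Csf2rb differ was not tested.

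**Figure D4:**
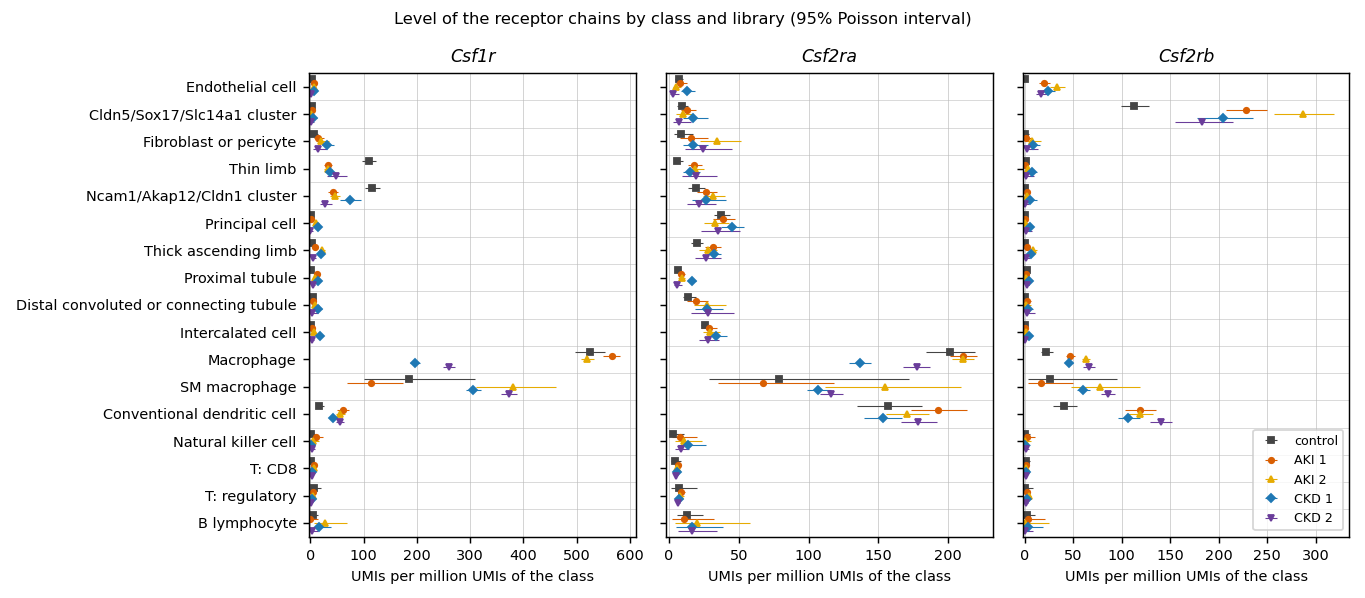
Levels of Csf1r, Csf2ra and Csf2rb in CPM of a class, by class and library, with 95% Poisson intervals as bars. Csf1r in macrophages was at 525 in the control, 566 and 519.6 in AKI and 196 and 260.4 in CKD, and Csf2rb in the Cldn5/Sox17/Slc14a1 cluster was between 113 and 287.

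The paralog Csf2rb2 was found in the same vessels, at 65.4 in the control, 161 and 204 in AKI, and 124 and 148 in CKD in the Cldn5/Sox17/Slc14a1 cluster. Plasmacytoid dendritic cells, at most 22 in a library, had Csf2rb2 at 78.7 to 230.2. Il3, a further ligand of the beta chain, had 1 UMI in the 5 libraries.

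Csf3 was the rarest member, with 26 to 82 UMIs per library. Principal cells had 2.68 in the control, 3.44 and 15.5 in AKI, and 5.58 and 18.1 in CKD, from 9 to 27 UMIs, with overlapping groups. In CKD 2, which had the highest level, a Csf3 UMI was found in 3.23% of 31 principal cells, and in 0% after thinning. The thin limb had 1.21 in the control, 14.9 and 5.99 in AKI, and 1.10 and 10.49 in CKD, from 2 to 41 UMIs. In AKI 2 a further 16 UMIs came from 0.581% of the endothelial cells. Csf3 could be tested in principal cells alone and was not called (0.20 ± 0.77, edgeR adjusted p = 0.9998). Its receptor gene Csf3r was high in neutrophils, at 1353 in the control, 1766 and 1333 in AKI, and 1783 and 1621 in CKD. In all macrophage-like cells Csf3r was at 14.9 in the control, 25.5 and 19.5 in AKI, and 3.87 and 6.19 in CKD. It fell from AKI to CKD (-2.34 ± 0.29, edgeR adjusted p = 0.00275), where 31.8% of genes were called. In macrophages outside the SM class the change was -1.50 ± 0.33 (edgeR adjusted p = 0.0295). SM macrophages held 3 Csf3r UMIs over all libraries and were a larger share of these cells in CKD. The part of this in the fall was not tested.

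Of 168 pairs of a member and a class, 79 passed the filter on low counts. Of these, 16 had an unadjusted p under 0.05 and 4 were called, all lower in CKD: Csf1r and Csf2ra in macrophages, and Csf1 and Csf1r in CD8 T cells. In macrophages 5 members were tested, where 10.8% of genes were called lower. The shares of all genes called in either direction were 13% in regulatory T cells (7.4% lower), 1.34% in the distal tubule (0.612% lower), 0.158% in mature dendritic cells (0.0452% lower), 0.0328% in conventional dendritic cells (0.0219% lower), 0.079% in T cells without a subtype (0.0439% lower) and 0.0721% in a cluster led by Satb1, Lef1 and Dapl1 (0.0541% lower). They were 0.0333% in B lymphocytes, 0.0968% in natural killer cells, 0.0335% in the proximal tubule and 0.00871% in the thick ascending limb, all lower. Over all macrophage-like cells Csf1 was called too, at 16.1 and 10.7 in AKI and 8.82 and 5.36 in CKD (-1.10 ± 0.31, edgeR adjusted p = 0.0404). This call was lost without AKI 1 (change -0.71) or AKI 2. Csf1 was called in neither part, with -0.58 ± 0.27 in macrophages and -0.51 ± 1.43 in SM macrophages (edgeR adjusted p = 0.186 and 0.902). SM macrophages stood at 11.3 and 0 in AKI and 4.40 and 1.85 in CKD. They made up 10.8% and 6.74% of these cells in AKI and 35.6% and 32.8% in CKD. The part of this mix in the combined change was not tested.

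**Figure D5:**
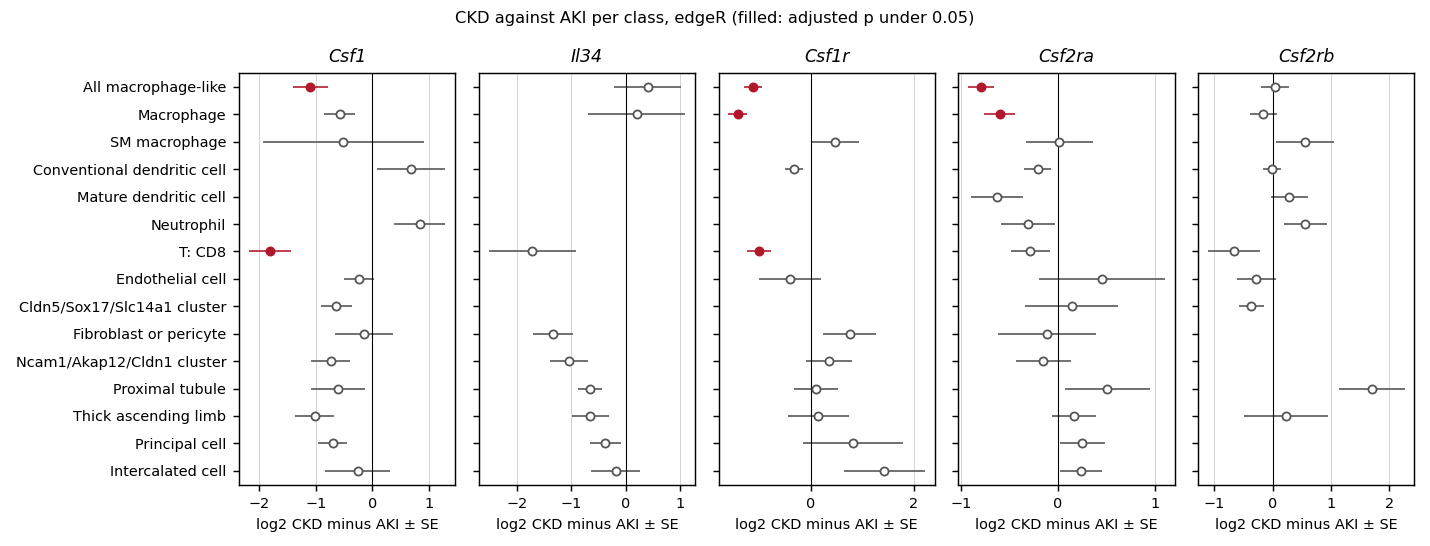
Change of 5 members from AKI to CKD per class, as edgeR log2 CKD minus AKI with its standard error as a bar and filled points for an adjusted p under 0.05. In all macrophage-like cells Csf1r, Csf2ra and Csf1 lay at -1.13, -0.795 and -1.10, and Csf2rb at 0.04.

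Genes that act with the receptors were read in the same macrophage-like cells. Of all genes tested there, 31.8% were called and 16.6% were lower in CKD. Of 18 genes of proximal CSF1R signalling, all tested, 8 were lower and 1 higher in CKD, with a median of -0.34 against 0.02 over all genes tested. The kinase Lyn stood at 200.2 in the control, 215 and 214.9 in AKI, and 91.1 and 116 in CKD (-1.23 ± 0.16, edgeR adjusted p = 0.00314). The PI3-kinase subunit Pik3cd and the kinase Mapk3 fell by 1.12 and 0.95 on the log2 scale. Of 10 genes of the JAK2-STAT5 branch, 5 were lower and 1 higher, with a median of -0.39, beside the same 16.6% lower over all genes. The feedback inhibitor Socs3 stood at 128 in the control, 468 and 534 in AKI, and 156 and 201 in CKD (-1.67 ± 0.17, edgeR adjusted p = 0.00147), the kinase Pim1 fell by 0.94, and the inhibitor Socs1 rose by 1.02. The SM class made up 10.8% and 6.74% of these cells in AKI and 35.6% and 32.8% in CKD. Its part in these counts was not tested. In the macrophage class, with 20.6% of genes called and 10.8% lower, the CSF1R list gave 8 lower and 1 higher. The JAK2-STAT5 list gave 1 lower and 2 higher there. In SM macrophages, where 0.791% of genes were called, neither list had a called gene.

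Of 12 myeloid transcription factors, 8 were lower and 3 higher in all macrophage-like cells, with a median of -1.10, where 31.8% of all genes were called and 16.6% were lower. Irf8, which is needed for monocytes and dendritic cells, stood at 266 in the control, 267 and 245 in AKI, and 76.4 and 81.1 in CKD (-1.89 ± 0.12, edgeR adjusted p = 0.000518). Maf, a factor of resident macrophages, fell by 1.86 and Ets2 by 1.42. In the macrophage class, where 10.8% of genes were called lower and 20.6% in either direction, 7 of the 12 were lower and 0 higher. In SM macrophages, where 0.791% of genes were called, 3 of the 12 were lower and 0 higher. Irf8 and Cebpa were among them, at -2.83 and -2.37 (edgeR adjusted p = 0.00775 and 0.0462). The AKI sums of this class held 177233 and 270995 UMIs from 81 and 71 cells. Its AKI 1 cells carried less SM marker RNA, as given above, and the part of this in the changes was not tested. Of 5 genes for CSF1 processing and other IL-34 binding proteins, 4 were tested in all macrophage-like cells. Adam17 and Adam10, proteases that shed surface proteins, fell by 1.13 and 0.43, and Sdc1, a proteoglycan that binds IL-34, stood at 1.95 in the control, 3.07 and 7.07 in AKI, and 51.4 and 61.6 in CKD (3.24 ± 0.32, edgeR adjusted p = 0.00136).

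As a description of pattern, each member with at least 500 UMIs was correlated with 13264 genes over 135 sums of a class in a library, which share libraries and depth. Csf2rb was most like its neighbour Csf2rb2 (Pearson's r = 0.863), then Fes (0.833) and Cpne2 (0.780). Csf1r was most like the lectin genes Clec4a2 (0.812) and Clec4a3 (0.796) and Igsf6 (0.760), and genes close to Csf2ra were Lrrc25 (0.782) and Igsf6 (0.770). Il34 was most like Ncam1 (0.810), Rhod (0.782) and Fat1 (0.775), Csf1 most like Pdlim7 (0.766), Tmem43 (0.730) and Tnfrsf1a (0.724), and Csf2 most like the T cell receptor genes Tcrg-C1 (0.726), Trdc (0.711) and Trgv2 (0.699).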

How the data were processed

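The deposited files hold UMI counts per gene and cell barcode, made by the authors from 10x single-cell libraries and not normalized. Per the labels' processing notes Cell Ranger 7.2.0 and STAR were used with GRCm39, but the matrix headers of the AAI libraries give a different release and the control's gene list names mm10, although all list the same 32285 genes. Which annotation was counted is therefore uncertain, and positions are those of GRCm39.

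Cells with at least 200 genes and at most 30% mitochondrial UMIs were kept, and simulated doublets were scored and removed at 0.8% per 1000 cells. Free RNA was not subtracted. The 3000 most variable genes without the members gave 40 components, which were corrected by library and clustered (leidenalg 0.10.2, resolution 1.5) into 55 clusters. Names came from marker lists, and the naming rules were settled after the clusters were seen. Counts were summed per library and class, and CKD was compared with AKI in 24 classes with at least 20 cells in each AKI and CKD library and in 2 combined classes, with the quasi-likelihood test of edgeR 4.0.16 (TMM, filterByExpr, Benjamini-Hochberg). DESeq2 1.42.0 was an alternative. The code was tested on simulated sums of macrophage-like and endothelial cells. Of 100 genes changed by 1 on the log2 scale, 35% and 24% were called, and of 100 changed by 2, 94% and 88%. Changes of 2-fold were thus mostly missed there, so a member not called may still have changed. The members and the lists were chosen with earlier results of these data known. Named were all members, Csf2rb2, Csf3r and Il3, at most 3 called genes per list and class with the smallest adjusted p (shown for macrophage-like classes), and the 3 genes most like each member, except items that are not reported here. Likeness used log2(level + 1). Intervals and limits from a count of 0 (3 counts) cover counting error only.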

Additional observations from a re-analysis of the deposited data

Results flagged for a closer look

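The change of Csf1r from AKI to CKD differed between SM macrophages and the other macrophages by 2.04 on the log2 scale (SE 0.31, edgeR with the library in the model, adjusted p = 5.21e-05), by a test of the difference itself. It was 0.48 in the SM class and -1.43 in the others. Leaving out each library in turn gave 1.37 to 3.39. The SM class had 81 and 71 cells in AKI, of which 43 and 33 were under 1000 UMIs, and 813 and 225 cells in CKD, with median depths of 945, 1034, 2717 and 31755 UMIs. The part of depth in the difference was not tested.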

How the results depend on the processing

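Of the 79 pairs of a member and a class, 4 were called. The count was 8 with no filter on low counts, 7 with no correction by library, 2 with doublets kept and 1 at a Leiden resolution of 1.0. Leaving out 1 library gave 0 to 20 calls: 0 without AKI 1 or AKI 2, 11 without CKD 1 and 20 without CKD 2. Over leave-one-out fits in all macrophage-like cells the change was -1.405 to -0.91 for Csf1r, -0.98 to -0.64 for Csf2ra and -1.44 to -0.71 for Csf1, and the SM difference of Csf1r was 1.37 to 3.39. Csf1 in all macrophage-like cells lost its call with doublets kept (-1.11), at most 15% mitochondrial UMIs (-1.44) and no correction by library (-1.26). Csf1r in SM macrophages turned from 0.48 to -0.058 without AKI 1, with a range of -0.058 to 1.73. The cause of these shifts was not tested. Labels give AKI and CKD libraries the same numbers, which mark no stated batch or animal. With the replicate block 3 pairs were called, Csf2ra in macrophages being lost (adjusted p = 0.0558, edgeR). Deviations of same-numbered libraries correlated between -0.18 and 0.27 over classes. In principal cells, the class under -0.1, the crossed pairing called 193 of 10075 genes and 0 members.

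Medians over the 5 libraries moved as follows, and the main shares of Csf1r per library are given above. A cluster led by Ccl6, Fn1 and Lyz2 stayed unnamed in 3 of the settings, so it was not counted as macrophage there. They were doublets kept, at most 15% mitochondrial UMIs and no correction by library. The part of this cluster in the medians was not tested. With doublets kept, the share of UMIs was 12.2% for Csf1 in endothelium, 20.85% for Il34 in the thick ascending limb, 57.9% for Csf1r in macrophage-like cells, 30.1% for Csf2ra in macrophages and 10.4% for Csf2rb in the Cldn5/Sox17/Slc14a1 cluster, and the levels of the last 3 were 429.6, 162.1 and 266.8. At most 15% mitochondrial UMIs gave 20.2% for Il34, 62.9% for Csf1r and 30.5% for Csf2ra, with a Csf2ra level of 168.9. No correction by library gave 66.98% for Csf1r and 31.3% for Csf2ra, with levels of 169.7 for Csf2ra and 246.4 for Csf2rb. Leiden 1.0 gave 21.04% for Il34. Equal weight per class gave 20.4% for Il34, 20.7% for Csf2ra, 42.9% for Csf2rb and 57.4% for Csf3. Thinned to 1000 UMIs, the share of cells with a UMI was 7.94% for Csf1, 2.04% for Il34, 36.65% for Csf1r, 2.67% for Csf2 in gamma-delta T cells (4 libraries, the control having under 20 such cells), 17.7% for Csf2ra, 12.1% for Csf2rb and 0.7905% for Csf3 in principal cells. Ranked by Spearman, 1 of the 3 genes most like Il34 and 1 of those most like Csf1r remained, and 0 for Csf2 and Csf2ra. Few libraries and free RNA limit all low levels.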

Other observations

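In the control, 3 cells of an unnamed cluster of 18 cells led by Hdc, Ifitm1 and Csf1 held 56 of the 1092 Csf1 UMIs of that library, a level of 5823. The 14 cells of the cluster in CKD 1 held 1 Csf1 UMI and its 1 cell in AKI 1 held 0.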
